A study of Homo sapiens with 6 samples.

Results

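The BCL2 family decides whether the outer mitochondrial membrane stays closed or opens to start apoptosis. The genes examined are 10 of its regulators, chosen by name: the anti-apoptotic *BCL2*, *BCL2L1* and *MCL1*, the effectors *BAX* and *BAK1*, and the BH3-only genes *BBC3*, *PMAIP1*, *BCL2L11*, *BID* and *BAD*. Each symbol matched 1 Ensembl gene of the deposited table, 10 of 58884 genes in all, and the 10 also passed the filter on low counts that left 16059 genes to test. RNA was sequenced from DLD1 parental cells, a human colorectal cancer line that carries a *PIK3CA* helical domain mutation, and from DLD1 cells with K477A and R478A in p85β, a change knocked into each copy of its gene *PIK3R2* by CRISPR/Cas9 (KR-AA cells), with 3 libraries per condition. Both conditions share the *PIK3CA* mutation, and they differ by the p85β change, by the editing and by the cloning of the edited cells. A pair of clones was derived separately in the study, and the labels do not tell from which of them each library came. All 3 KR-AA libraries carry this genotype in their titles and genotype labels, whereas the source names of replicates 2 and 3 give another number for the second residue. Nothing in the labels says that the 3 libraries came from separate cultures, so p-values measure only the spread between these libraries, which may be technical. The study asked whether nuclear p85β regulates gene expression, and the comparison here asks how the RNA of these apoptosis regulators differed between the conditions.

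Proteins of the family meet at mitochondria. BAX and BAK1 form pores in the outer membrane that let cytochrome c out, the anti-apoptotic proteins bind and hold the effectors and the BH3-only proteins, and the BH3-only proteins transmit stress signals by occupying the anti-apoptotic groove or by activating the effectors. Colorectal cancer cells commonly depend on BCL-XL, the long product of *BCL2L1*, and on MCL1 for survival.

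What the members share is the BH3 motif, by which they bind each other, and the coding sequence of its core is shown to place each gene in the family. The sequences are reference sequences from the canonical GENCODE transcript of each gene on GRCh37, with 24 bases (8 codons) each. Capitals mark the leucine codon that opens the core, the small residue in the fifth codon and the aspartate codon after it. The fifth codon encodes glycine in 8 genes, alanine in *BBC3* and serine in *BAD*.
BCL2, chr18:60985588-60985611, minus strand: CTCcgccaggccGGCGACgacttc
BCL2L1, chr20:30309731-30309754, minus strand: CTGagggaggcaGGCGACgagttt
MCL1, chr1:150551347-150551370, minus strand: TTAcgacgggttGGGGATggcgtg
BAX, chr19:49459044-49459067, plus strand: CTCaagcgcatcGGGGACgaactg
BAK1, chr6:33543170-33543193, minus strand: CTCgccatcatcGGGGACgacatc
BBC3, chr19:47729842-47729865, minus strand: CTGcggcggatgGCGGACgacctc
PMAIP1, chr18:57569905-57569928, plus strand: CTCaggagatttGGAGACaaactg
BCL2L11, chr2:111907680-111907703, plus strand: TTGcggcgtattGGAGACgagttt
BID, chr22:18222187-18222210, minus strand: CTCgcccaggtcGGGGACagcatg
BAD, chr11:64039100-64039123, minus strand: CTCcggaggatgAGTGACgagttt
The core lay within a single exon in every gene: exon 1 of *MCL1*, exon 2 of *BCL2*, *BCL2L1* and *PMAIP1*, exon 3 of *BAX*, *BBC3*, *BCL2L11* and *BAD*, and exon 4 of *BAK1* and *BID*. *BID* held a second match to the same pattern, and the match with glycine was taken. Counts per gene do not separate splice forms, so that forms of *BCL2L1*, *MCL1* or *BCL2L11* with opposite or different activity are summed.

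Estimated counts summed to between 20301396 and 26712816 per library, and CPM is the count relative to the TMM-scaled library size. The TMM factors were 0.677 to 0.777 in parental and 1.35 to 1.41 in KR-AA libraries. A detection floor of 3 counts was 0.0818 to 0.218 CPM, which takes in counting error alone. Levels given with ± are the mean and SD over the n = 3 libraries of a condition. *PIK3R2* itself had between 124.5 and 524.1 counts, with overlapping conditions, and counts cannot show the knocked-in bases. Another protein-coding gene overlaps *PIK3R2* on the same strand and had means of 2666 counts in parental and 1583 in KR-AA libraries. How reads were divided between these genes was not tested. The conditions differed widely, as 46.2% of the tested genes passed an adjusted p under 0.01 and a fold change of at least 3, the thresholds of the study's methods. Of 15 colon epithelial markers, 9 fell and 2 (*CDH1* and *CDH17*) rose. The summed level of the list was 58696 to 80895 CPM in parental and 9163 to 10717 CPM in KR-AA libraries. Most of that sum was *KRT8* (means of 37381 CPM in parental and 4454 CPM in KR-AA libraries), *KRT18* (18441 and 2537) and *KRT19* (11444 and 1739). *CDX1* had no more than 3 counts in any library of either condition. Of 15 mesenchymal markers 9 rose and none fell, with a summed level of 7.65 to 10.8 CPM in parental and 6345 to 7250 CPM in KR-AA libraries. In KR-AA libraries most of that sum was *FN1* (mean 4992 CPM) and *VIM* (mean 1772 CPM). *TWIST1*, *COL1A2*, *THY1* and *SPARC* stayed at 3 counts or fewer in each KR-AA library. Of 8 neuron markers 4 could be tested and 2 rose, *NEFL*, from no count to 131.5 ± 2.0 CPM, and *MAP2*, while *DCX* and *ELAVL4* had no count. The summed level of this list was 522.1 to 610.1 CPM in parental and 340.2 to 363.1 CPM in KR-AA libraries, mostly *TUBB3* (561.4 ± 43.95 and 210.9 ± 11.4 CPM). Of 7 blood markers only *CD14* could be tested and did not pass (adjusted p = 0.37), the summed level was 4.32 to 6.92 CPM over the 6 libraries, and *PTPRC*, *CD3E* and *HBB* had at most 3 counts in any. Whether this shift of markers has a part in the results below was not tested.

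Among the 10 family members, *BCL2* rose and *BCL2L1*, *BAX*, *BAK1*, *BBC3*, *BID* and *BAD* fell in KR-AA cells past both thresholds by edgeR's quasi-likelihood test. Across all tested genes 28.6% rose and 17.6% fell. When the fit carried smooth length and GC offsets, *BID* and *PMAIP1* fell and no member rose, and 13.9% of all genes in that fit rose and 10.7% fell. *MCL1* and *BCL2L11* were higher and *PMAIP1* lower with an adjusted p under 0.01 but a fold change under 3, so that the 10 members passed the p threshold, 3 higher and 7 lower. Of all tested genes 74.3% passed it, 41.6% higher and 32.7% lower. In bulk RNA, fewer cells with a transcript and less of it per cell cannot be told apart. The groups did not overlap in TMM-scaled CPM for any of the 10, with KR-AA above parental for 3 and below for 7. The estimated counts of *PMAIP1* before scaling did overlap, at 540 to 773 in parental and 385 to 755 in KR-AA libraries. Groups did not overlap in 83.4% of the tested genes, 47.0% with KR-AA above and 36.5% below. The median log2 fold change was -1.96 over the 10 members, -2.29 over the 7 pro-apoptotic members and 0.32 over all tested genes. The plot of levels by library shows this order.

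**Figure D1:**
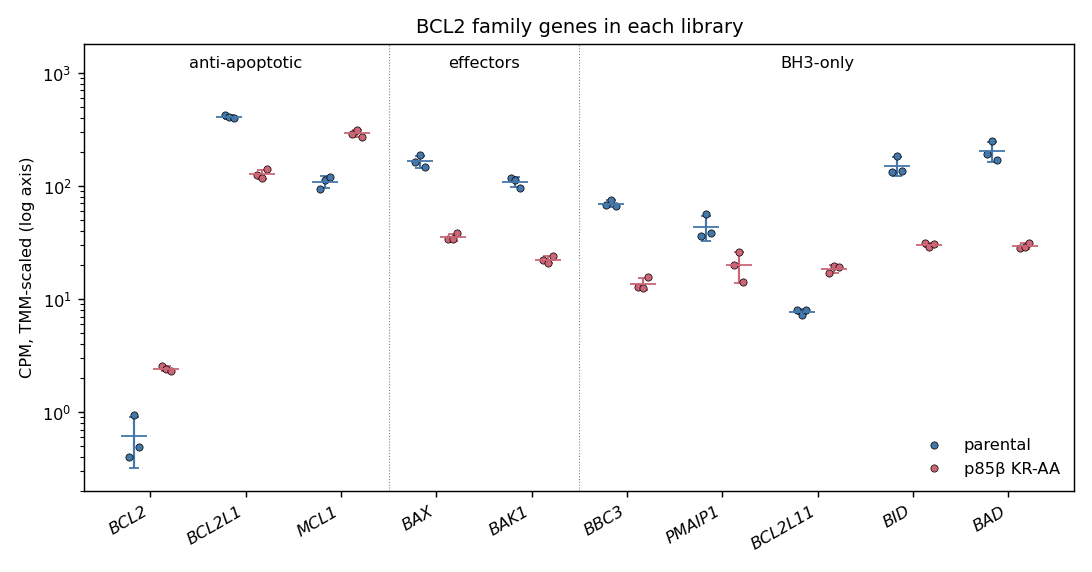
TMM-scaled CPM (log axis) of the 10 genes in each of the 3 parental and 3 KR-AA libraries. Points are libraries, and the horizontal mark and bar are the mean ± SD (n = 3). With this scaling no gene has overlapping conditions, whereas the counts of *PMAIP1* before scaling overlap. *BCL2*, *MCL1* and *BCL2L11* alone lie higher in KR-AA libraries with this scaling. On the log2 scale these 3 genes are at -0.16, -0.01 and -0.28 with length and GC offsets.

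Both the strongest and the weakest expressed anti-apoptotic genes of parental cells moved in opposite directions with TMM scaling. *BCL2L1* (ENSG00000171552, chromosome 20), which encodes BCL-XL, was counted 6442, 5571 and 6436 times in parental libraries, all above the 4556, 3356 and 3851 counts of the KR-AA libraries. On the CPM scale this was 410.2 ± 15.9 and 127.1 ± 12.0, a 3.23-fold decrease (log2 fold change -1.69, standard error 0.13, adjusted p = 7.28e-08). The spread was 3.88% of the mean in parental libraries, the smallest of the 10 genes there. *ABALON*, a non-coding gene on the opposite strand of *BCL2L1*, took means of 185.1 and 116.8 counts, and the counting is not stated to use strand.

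*MCL1* (ENSG00000143384, chromosome 1), a short-lived survival protein, had 1416, 1556 and 1933 counts in parental and 10654, 8947 and 7435 in KR-AA libraries. In these counts before scaling, every KR-AA library lay far above every parental one. Its level was 108.9 ± 13.2 CPM against 291.0 ± 20.3 CPM, 2.67-fold higher (log2 fold change 1.42, standard error 0.13, adjusted p = 6.36e-07). This was below the 3-fold threshold with TMM scaling and with each library left out in turn (log2 fold change 1.31 to 1.47). The log2 fold change was 2.34 with library totals, 0.59 with a length offset and -0.01 (adjusted p = 0.91) with length and GC offsets. *ADAMTSL4*, on the other strand at this locus, had means of 18.1 and 260.0 counts, few beside those of *MCL1*.

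*BCL2* (ENSG00000171791, chromosome 18), the founding member of the family, was close to the detection limit in parental cells, with 6, 13 and 8 counts. The KR-AA libraries had 93, 69 and 63 counts. The corresponding levels were 0.613 ± 0.293 and 2.41 ± 0.12 CPM, and the log2 fold change of 1.99 had the widest standard error of the 10 genes (0.35, adjusted p = 1.72e-04). It ranged from 1.75 without parental replicate 1 to 2.39 without parental replicate 2, the library with 13 counts. At its higher level in KR-AA cells *BCL2* was still the lowest of the 10 genes per length.

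Both effectors fell with TMM scaling. *BAX* (ENSG00000087088, chromosome 19) had 2428, 2558 and 2379 counts in parental and 1239, 974 and 1052 in KR-AA libraries, and *BAK1* (ENSG00000030110, chromosome 6) had 1767, 1539 and 1565 against 804.1, 598.8 and 656.4. The lowest parental library was above the highest KR-AA library for both genes. On the CPM scale *BAX* went from 164.8 ± 20.01 to 35.4 ± 2.6, 4.66-fold lower (log2 fold change -2.22, standard error 0.14, adjusted p = 1.91e-08). *BAK1* went from 108.7 ± 10.8 to 22.2 ± 1.6 CPM, 4.89-fold lower (log2 fold change -2.29, standard error 0.14, adjusted p = 1.56e-08). *GGNBP1*, which overlaps *BAK1* on the other strand, had at most 2 counts in a library.

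Of the BH3-only genes, *BAD*, *BID* and *BBC3* fell with TMM scaling. *BAD* (ENSG00000002330, chromosome 11), whose protein is held inactive by growth factor signaling through AKT, had 2877, 3402 and 2756 counts in parental and 1045, 822.7 and 865.0 in KR-AA libraries. Its decrease was the largest of the 10 genes with TMM scaling, from 203.0 ± 40.2 to 29.6 ± 1.7 CPM, 6.87-fold (log2 fold change -2.78, standard error 0.16, adjusted p = 1.11e-08). *GPR137* overlaps it on the opposite strand and had means of 452.0 and 478.6 counts. *BID* (ENSG00000015475, chromosome 22), which caspase 8 cleaves to link death receptors to mitochondria, had 2005, 2550 and 2186 against 1147, 832 and 839 counts. Its level was 151.2 ± 29.8 CPM in parental and 30.3 ± 1.2 CPM in KR-AA cells, 4.99-fold lower (log2 fold change -2.32, standard error 0.16, adjusted p = 3.23e-08). *BBC3* (ENSG00000105327, chromosome 19), which encodes PUMA, had 1016, 1032 and 1069 against 470, 362 and 430 counts. This was 69.5 ± 4.9 against 13.7 ± 1.7 CPM, 5.08-fold lower (log2 fold change -2.34, standard error 0.15, adjusted p = 2.42e-08).

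*PMAIP1* (ENSG00000141682, chromosome 18) encodes NOXA, which binds MCL1 and favors its degradation. Its estimated counts were 540, 773 and 623 in parental and 734, 755 and 385 in KR-AA libraries. It had the widest spread of the 10 genes in KR-AA libraries, 30.5% of the mean, where the median was 7.38% over tested genes whose average log2 CPM was 4 or more. Its level was 43.5 ± 11.1 against 20.1 ± 6.1 CPM, 2.16-fold lower (log2 fold change -1.11, standard error 0.23, adjusted p = 7.15e-04). The log2 fold change ranged from -1.34 without KR-AA replicate 2 to -0.91 without KR-AA replicate 3 or parental replicate 2. With libraries scaled by their totals the log2 fold change was -0.17 (adjusted p = 0.53, the highest over its alternatives). The lowest, 2.17e-08, came without the filter on low counts, where prior degrees of freedom were infinite and the gene's own spread did not enter.

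*BCL2L11* (ENSG00000153094, chromosome 2) encodes BIM, a FOXO target that binds the anti-apoptotic proteins of the family. It had 120, 100 and 129.6 counts in parental and 616.9, 564.8 and 530 in KR-AA libraries, and was the only pro-apoptotic member higher in KR-AA cells with TMM scaling. The level was 7.75 ± 0.41 against 18.6 ± 1.5 CPM, 2.39-fold (log2 fold change 1.26, standard error 0.17, adjusted p = 1.70e-05). These counts are uncertain, because the non-coding gene *MIR4435-2HG* overlaps *BCL2L11* on the other strand and took more counts, with means of 393.1 and 670.6.

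Per kilobase of gene length, the order of the 10 genes differed between conditions. This order is not corrected for the relation of fold changes with length and GC content, and *MCL1*, which differed most in rank, had a log2 fold change of -0.01 with length and GC offsets. In parental cells *BAD* (175.4 ± 34.7 CPM per kilobase) and *BCL2L1* (159.1 ± 6.2) came first and overlapped in range. They were followed by *BAX* (121.3 ± 14.7), then by *BID* (60.6 ± 12.0) and *BAK1* (50.1 ± 5.0), which overlapped each other. *BBC3* (38.1 ± 2.7), *PMAIP1* (34.5 ± 8.8) and *MCL1* (27.6 ± 3.3) overlapped from each to the next, and *BCL2L11* (1.52 ± 0.08) and *BCL2* (0.0821 ± 0.0393) were far lower. In KR-AA cells *MCL1* (73.7 ± 5.1 CPM per kilobase) was first and *BCL2L1* (49.3 ± 4.6) second, with no overlap. *BAX* (26.03 ± 1.91) and *BAD* (25.5 ± 1.5) overlapped, as did *PMAIP1* (15.9 ± 4.9) and *BID* (12.1 ± 0.5). *BAK1* (10.2 ± 0.7), *BBC3* (7.50 ± 0.94), *BCL2L11* (3.65 ± 0.30) and *BCL2* (0.323 ± 0.016) each lay apart from their neighbors.

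Shares of the family total do not depend on how libraries are scaled against each other, but no relation of counts with gene length or GC content was taken out of them. The 3 anti-apoptotic genes held 29.3%, 24.8% and 30.4% of the summed counts per kilobase of the 10 genes in parental libraries, against 55.4%, 54.8% and 54.7% in KR-AA libraries. The shares were thus close among the KR-AA libraries and well above all parental ones. Effectors held 25.7 ± 0.9% in parental and 16.2 ± 1.1% in KR-AA libraries, and BH3-only genes 46.2 ± 3.4% and 28.9 ± 1.0%. The anti-apoptotic difference followed *MCL1*, whose share of the 10 genes was 4.16 ± 0.72% and 32.8 ± 2.2%, while *BCL2L1* held 20.96 to 25.6% in parental and 19.96 to 24.1% in KR-AA libraries, with overlap. *PMAIP1*, lower in CPM, held 4.39 to 5.94% of the family in parental and 4.93 to 9.17% in KR-AA libraries, also with overlap. Within the anti-apoptotic class *BCL2L1* made up 85.2 ± 2.0% in parental and 40.0 ± 3.9% in KR-AA libraries.
The ratio of *MCL1* to *BCL2L1* per kilobase was 0.143, 0.182 and 0.196 in parental libraries against 1.53, 1.74 and 1.26 in KR-AA libraries. The more abundant gene of the pair by this measure thus differed between the conditions, whereas with length and GC offsets the log2 fold changes were -0.01 for *MCL1* and -0.77 for *BCL2L1*. *BCL2L1* to *BAX*, a ratio of guard to effector, was 1.40, 1.15 and 1.43 in parental and 1.94, 1.82 and 1.93 in KR-AA libraries. The *MCL1* to *BAK1* ratio was 0.558 ± 0.119 in parental and 7.24 ± 0.99 in KR-AA libraries. *BCL2L11* to *BBC3*, within the BH3-only class, was 0.0402 ± 0.0047 and 0.490 ± 0.061. No test is given for these sums and ratios, since the genes were chosen with results known and an exact permutation test of 3 against 3 libraries cannot go below p = 0.1. The bar chart of shares by library displays these values.

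Fold changes across the transcriptome moved with gene length and base composition, and those of the 10 members as a set were correlated with both in the same directions. Over 16059 tested genes the Spearman correlation of the log2 fold change was 0.45 with gene length and -0.57 with the GC content of the longest annotated transcript (15902 genes), values across genes that share the same 6 libraries. Over the 10 members the correlations were 0.72 with length and -0.82 with GC content. The 3 members that were higher in KR-AA cells are the longest of the 10, *BCL2* with 7461, *BCL2L11* with 5098 and *MCL1* with 3950 bases, and have 44.7 to 46.6% GC. The 6 that fell are 1157 to 2578 bases long with 49.7 to 69.7% GC. *PMAIP1*, which was lower, combines a short gene (1262 bases) with the lowest GC content of the 10, 36.7%. *BID*, among those that fell, has 2495 bases and 49.7% GC, near the medians of 2796 bases and 48.9% over all tested genes.

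With a smooth offset for gene length in the fit, which removes any relation with length whatever its source, no member rose and 5 fell, *BCL2L1*, *BAK1*, *BBC3*, *BID* and *BAD*. In that fit 18.3% of all tested genes rose and 18.8% fell. The log2 fold changes of the higher genes were then 0.05 for *BCL2* (adjusted p = 0.91), -0.06 for *BCL2L11* (0.75) and 0.59 for *MCL1* (7.43e-04). The lowest adjusted p over the alternatives was 2.08e-07 for *BCL2* and 6.32e-22 for *MCL1*, without the filter on low counts. The prior degrees of freedom were infinite in that fit, so the spread of each gene by itself did not enter these values. For *BCL2L11* the lowest was 2.46e-09, with DESeq2. With offsets for length and GC content, *BID* (log2 fold change -2.49) and *PMAIP1* (-1.76) fell, and *MCL1* was at -0.01 (adjusted p = 0.91). *BAK1* stood at -1.12, *BCL2L1* at -0.77, *BAX* at -0.55, *BAD* at -0.44 and *BBC3* at -0.29 in that fit. *BID* passed both thresholds with TMM scaling and with either set of offsets, though not with library totals.
Scaling by library totals, without TMM, shifted the median of all tested genes upwards by 0.92 on the log2 scale. *MCL1* (2.34), *BCL2L11* (2.18) and *BCL2* (2.91) then rose, and *BAD* (-1.84) was the single member that fell, where 43.9% of all tested genes rose and 6.06% fell. *BID*, *BBC3*, *BAK1*, *BAX* and *BCL2L1* lay between -1.42 and -0.77 on the log2 scale, each with an adjusted p under 0.01. The plot of fold changes by scaling sets the fits side by side.

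**Figure D2:**
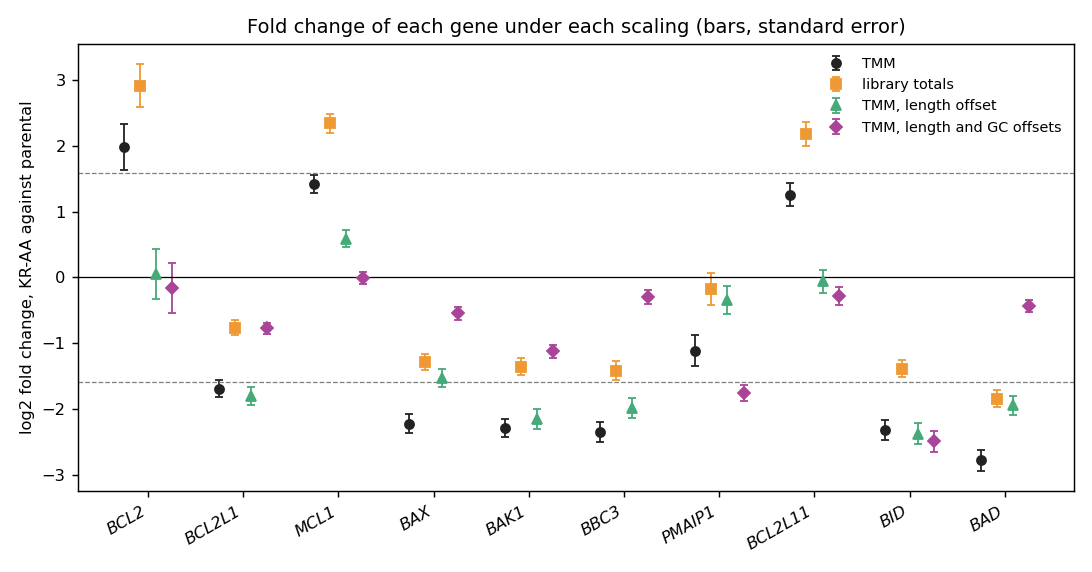
Log2 fold change (KR-AA against parental, bars are standard errors) of each gene with TMM scaling, library totals, a length offset, and length and GC offsets. Dashed lines mark a 3-fold change; *BCL2L1*, *BAX*, *BAK1*, *BBC3*, *PMAIP1*, *BID* and *BAD* stay below 0 in all 4 fits, and *BCL2*, *MCL1* and *BCL2L11* reach 0 or below with length and GC offsets.

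The rest of the BCL2 family was listed by name as well, 11 genes, of which 9 could be tested. *BOK*, an effector-like member, *BIK*, a BH3-only member, and *BCL2L12*, an atypical member, fell, and none rose. Of all tested genes 17.6% fell and 28.6% rose. *BIK* had 2167, 2018 and 2045 counts in parental and 741, 588 and 678 in KR-AA libraries (log2 fold change -2.67, adjusted p = 7.54e-09). *BOK* had 3188, 2982 and 2691 against 1214, 887 and 923 counts (log2 fold change -2.61, adjusted p = 8.76e-09). *BCL2L12* was at -2.48, and shares its locus with *IRF3* on the other strand, which had means of 3774 and 1309 counts. With length and GC offsets *BIK* was at -1.07, *BOK* at -1.11 and *BCL2L12* at -1.36, under the fold threshold.
*HRK*, a BH3-only gene, had 6 to 25 counts per library and a log2 fold change of -1.53 (adjusted p = 0.0063), and passed both thresholds with length and GC offsets. The anti-apoptotic *BCL2L2*, which encodes BCL-W, was at 0.49 (adjusted p = 0.0086) and *BCL2L13* at 0.76 (8.67e-04). The direction turned with the length offset for *BCL2L2* (-0.17, adjusted p = 0.36) and *BCL2L13* (-0.50, 0.0096), and for *BCL2L13* also with length and GC offsets (-0.57, 7.73e-04). A readthrough gene with *PABPN1* covers *BCL2L2* and had means of 163.9 and 222.3 counts. *BCL2L15* at 0.53, *BCL2L14* at 0.50 and *BMF*, a BH3-only gene, at -0.33 did not pass the p threshold. *BCL2L15* was at -1.49 with length and GC offsets and *BMF* at 0.59 with library totals. *BCL2A1* had no count in any library and *BCL2L10* no more than 2.

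Downstream of the mitochondria, 1 of 8 apoptosome and caspase genes rose and 2 fell, where 28.6% of all tested genes rose and 17.6% fell. *APAF1*, the scaffold that activates caspase 9, had 45.2, 61 and 64 counts in parental and 1038, 810 and 655.1 in KR-AA libraries (log2 fold change 2.82, standard error 0.20, adjusted p = 4.67e-08). *HTRA2* (-1.70) and *CASP9* (-1.62), an antagonist of IAP proteins and the initiator caspase, fell. With length and GC offsets *APAF1* was at 0.63, and *HTRA2*, *CASP9* and *CASP6*, an executioner caspase, were among those past both thresholds in the lower direction.

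Inhibitors of apoptosis, which block caspases or tag them for degradation, had a median log2 fold change of 3.04 over 7 genes, the highest of the 6 apoptosis lists beside the 10 members. *XIAP*, *BIRC2*, *BIRC3*, *BIRC6* and *NAIP* rose and *BIRC5*, which encodes the mitotic protein survivin, fell. Over all tested genes the shares that rose and fell were 28.6% and 17.6%. *BIRC6* had 80, 41 and 86 counts in parental and 2382, 1811 and 1298 in KR-AA libraries (log2 fold change 3.68, standard error 0.23, adjusted p = 1.90e-08). *NAIP*, with near-identical copies in the genome, had 1, 2 and 0 counts against 100.6, 109.1 and 60.8, too few in parental cells for a fold change. *BIRC5* fell to 83.2 ± 4.5 from 374.4 ± 25.4 CPM. The offsets for length and GC content left *NAIP* and *BIRC7* as risen and *BIRC5* as fallen (log2 fold change -2.05). In that fit 13.9% of all genes rose and 10.7% fell. *BIRC2* was then at 1.48, *BIRC6* at 0.61 and *XIAP* reversed to -0.92. *BIRC7* had 1 to 6 counts in parental and 13 to 20 in KR-AA libraries.

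In the death receptor arm, 12 of 15 genes could be tested, of which *CASP10* rose and *FADD*, *TRADD* and *TNFRSF10C* fell. Among all tested genes 28.6% rose and 17.6% fell. *FADD*, the adaptor between receptor and caspase 8, had 2921, 2659 and 2848 counts against 1043, 864 and 803.3 (log2 fold change -2.68, standard error 0.13, adjusted p = 4.50e-09). *CASP10* was at 2.43 and *TRADD* at -1.88. *TNFRSF10C*, at -1.84, had 4.8 to 35.0 counts per library. *TNFRSF10B*, the TRAIL receptor DR5, was at 1.27, *CFLAR*, the inhibitor of caspase 8 activation, at 1.31 and *CASP8* at 0.77, each with an adjusted p under 0.01 and under the fold threshold. With length and GC offsets no gene of this list passed both thresholds, and *CASP8* (-0.51, adjusted p = 0.0013) and *TRADD* (0.09, 0.47) changed direction. So did *FAS*, from 1.47 to -0.31 (adjusted p = 0.35), and *RIPK1*, from 0.25 to -0.64 (0.0023).

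Genes that act on MCL1 protein stability or on BH3-only transcription were listed too. Of 5 genes for MCL1 turnover, *HUWE1* (log2 fold change 2.46) and *BTRC* (1.76), which serve its ubiquitination, and *USP9X* (4.45), which removes ubiquitin from it, rose. *USP9X* had 76, 36 and 73 counts in parental and 3510, 2902 and 1963 in KR-AA libraries. It is 12401 bases long, and was at 1.95 with the length offset and 1.36 with length and GC offsets. In the latter fit *HUWE1* was at 0.56, *BTRC* reversed to -0.15, and *MARCHF5*, another ubiquitin ligase for MCL1, fell. Of 8 transcription factors known to act on BH3-only genes, *FOXO1* (2.31) and *FOXO3* (2.85) rose, and *TP73* (-1.88) and *E2F1* (-2.01) fell. With length and GC offsets *FOXO3* was at 1.22, and *TP73* was the single factor past both thresholds. Over the 54 genes of these 6 lists, 49 were tested, 12 rose (24.5%) and 11 fell (22.4%), beside 28.6% and 17.6% of all tested genes, with a median log2 fold change of 0.49 beside 0.32 over all tested genes. The plot of fold changes by role shows each list.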

How the data were processed

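Values are estimated counts of reads for each Ensembl gene, deposited without normalization for the 6 libraries beside a gene length. The methods name trimming with SeqPrep and Sickle. The submitters' processing notes name HISAT2 2.1.0, RSEM 1.3.1, DESeq2 1.24.0 and hg18, without roles. The annotation is not given in the sources used here. Positions and symbols are those of GENCODE release 44 on GRCh37, joined by Ensembl identifier, and are not taken from the build behind the counts. Symbols were found for 56745 of 58884 genes.

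Counts were rounded for testing with edgeR 4.0.16 in R 4.3.3 (filterByExpr, minimum count 10 and total 15, TMM, quasi-likelihood F test, Benjamini-Hochberg over 16059 genes), which was checked on simulated counts. The simulation held few changed genes, balanced in direction and without a relation to length or GC content, so it did not test the scaling of these libraries. The fixed design assumed counts as deposited. Rose or fell means an adjusted p under 0.01 and a fold change of at least 3. Standard errors come from the log2 fold change and F. CPM uses TMM-scaled library sizes. Library replicates differed by 4.37 to 39.4 times sampling noise (chi-square per degree of freedom).

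The members, gene lists, tests and alternatives were chosen with earlier results of these data known. Named were the 10 members, the other BCL2 family genes and, per further list, up to 2 genes per direction with the largest change and an average log2 CPM of at least 0, plus genes in counts of 5 or fewer. *CASP6*, *BIRC7*, *MARCHF5*, *TNFRSF10B*, *CFLAR*, *CASP8*, *FAS* and *RIPK1* were named after their values were seen. Some listed genes are not reported here by name. Alternatives were DESeq2 1.42.0, library totals, no filter, a replicate block, offsets for gene length and GC content (splines with 5 degrees of freedom, MASS), other thresholds and each library left out.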

Additional observations from a re-analysis of the deposited data

How the results depend on the processing

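With DESeq2, without the filter and with each library left out, the 10 members kept their direction and their side of the thresholds. The number of members that rose was 3 with library totals, 3 without a fold threshold, 3 at a fold of at least 2, 0 with the length offset and 0 with length and GC offsets, against 1. The number that fell was 1 with library totals and 2 with length and GC offsets, against 6, where 6.06% and 10.7% of all genes in those fits fell. In that last fit *BCL2* (-0.16), *MCL1* (-0.013) and *BCL2L11* (-0.28) changed sign, as *BCL2L11* did with the length offset (-0.061). Of the other apoptosis genes, 22 rose with library totals, 22 without a fold threshold, 5 with the length offset and 2 with length and GC offsets, against 12, and 3 fell with library totals and 18 without a fold threshold, against 11. The lists of these other genes hold 49 tested genes. Among all genes in each fit, 43.9% rose with library totals, 18.3% with the length offset and 13.9% with both offsets, against 28.6%. Without a fold threshold 41.6% of all tested genes were higher and 32.7% lower. No share over all tested genes is given at a fold of at least 2, so the count at that threshold has no comparison. With library totals 6.06% of all tested genes fell, against 17.6%. The offsets remove any relation with length or GC content by construction. Why library totals and TMM differ was not tested. The anti-apoptotic share differed by 26.8 percentage points per kilobase and by 30.1 for counts not divided by length.

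With the replicate number as a block, 1 member rose and 6 fell, and 12 other apoptosis genes rose and 11 fell. Of all 16059 genes in that fit, 4626 rose and 2827 fell. Same-numbered libraries had correlations of their deviations of -0.14, 0.12 and -0.045, and differently numbered ones of -0.18 to 0.23. Deviations from a mean of 3 libraries are tied to each other, so these values cannot tell whether same-numbered libraries were handled together. The block changed no call of a member. The prior degrees of freedom of the block fit were infinite, also with robust moderation, and so were those of the fit without the filter on low counts. Counting limits *BCL2*, with 6 to 13 parental counts, most.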

Other observations

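Among the 10 members, parental replicate 2 had the highest CPM of its condition for 6 genes, against 36.6% of all tested genes, and KR-AA replicate 3 for 5, against 42.4% of all tested genes. Over the 59 tested apoptosis genes, KR-AA replicate 3 was the highest of its condition in 50.8% and the lowest in 37.3%.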
